A study of Mus musculus with 10 samples.

Results

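Heat shock proteins, their co-chaperones and the enzymes that assist protein folding were described in quadriceps muscle of 5 inbred mouse strains. The members were taken by gene symbol: every array feature with a single symbol that begins with Hsp, Dnaj, Cct with a digit, Bag with a digit, Pdia or Ppia to Ppih, and Stip1, Canx, Calr and P4hb, without a small RNA that carries the symbol Hspa8. This gave 58 genes, each with 1 feature, of 7697 features tested. Of these, 57 encode chaperones, co-chaperones or folding enzymes, and Hspg2 entered by its letters alone. It encodes perlecan, a proteoglycan of basement membranes.

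The mice were untreated wild-type males of the strains CBA/CaOlaHsd (CBA), C57Bl/10ScSnOlaHsd (BL10), C57Bl/6JOlaHsd (BL6), DBA/2OlaHsd (DBA) and BALB/cOlaHsd (BALB), 2 of each, delivered when 6 weeks old and used when 8 weeks old. RNA of whole quadriceps was compared between 2 animals of different strains on each of 10 arrays, 4 in a smaller and 6 in a larger loop that share no animal, and animals are named below by strain and number. One array labelled BL6 2 with CBA 1 and one labelled BALB 1 with CBA 2 carry the same value at every spot, so that at least 1 of them goes against its label, and both were left out. In the 8 arrays that remain, each CBA animal is on 1 array, labelled with Cy5 and set against a BL10 animal. All differences between CBA and another strain therefore rest on the dye term, the part of a gene's ratio that goes with the label and not with the strain. The values are ratios and hold no absolute level, so the tissue cannot be checked by the presence of its markers, genes cannot be ranked by abundance, and fewer cells of a type cannot be told apart from less RNA per cell. The precision is limited by the number of arrays and animals.

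Chaperones bind unfolded or newly made proteins and let them fold. Hsp70 proteins do this in cycles of ATP hydrolysis that are started by J-proteins, named Dnaj, and ended by exchange factors such as the Bag proteins and Hsp110. The chaperonins, Hspd1 with Hspe1 in mitochondria and the Cct subunits in the cytosol, enclose a protein in a chamber. Small heat shock proteins hold unfolded proteins without ATP and are abundant in muscle, where they guard the filaments of the sarcomere. In the endoplasmic reticulum, calnexin, calreticulin, the Hsp90 protein Hsp90b1 and the disulfide isomerases serve secreted and membrane proteins. Cyclophilins, named Ppi, turn bonds at proline. Many of these genes share the heat shock element, repeats of the letters GAA in alternating direction, to which the heat shock factor Hsf1 binds.

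Promoters in the RefSeq table for the build GRCm38.p6, which is the genome of C57BL/6J and not of the other strains, were found for 50 of the 58 members. The windows run from 250 bases before the start of the transcript to 50 bases after it. The letters GAANNTTC or TTCNNGAA, which are parts of the heat shock element and read the same on both strands, were present for 15 of the 50 genes (30%) and for 17% of the 27025 genes in the table. A run of 3 units, GAANNTTC followed directly by NNGAA or TTCNNGAA followed directly by NNTTC, which holds both of the motifs just named, was present for 4 of the 50 genes (8%), Hspd1, Hspe1, Dnajb6 and Hsph1, and for 0.662% of all genes. The letters CCAAT, searched on both strands, were present for 26 members (52%) and for 41.1% of all genes. The following stretches of 120 bases end at the base before the start of the transcript, run 5′ to 3′ on the strand of the gene, and show the GAANNTTC and TTCNNGAA matches in capitals. Dnaja2 is shown because it differed most between the strains, and the other 4 genes are shown because they hold a match, which is not the rule in each class. A match was present in 2 of the 7 genes of the Hsp70 and Hsp110 family with a window, Hspa1a and Hsph1, in 3 of 4 small heat shock proteins, in both genes of the mitochondrial chaperonin and in 4 of 17 J-proteins.
Dnaja2, chr8:85555362-85555481, minus strand: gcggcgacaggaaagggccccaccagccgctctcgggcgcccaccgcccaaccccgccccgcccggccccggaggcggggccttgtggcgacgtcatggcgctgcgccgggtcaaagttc
Hspe1, chr1:55088028-55088147, plus strand: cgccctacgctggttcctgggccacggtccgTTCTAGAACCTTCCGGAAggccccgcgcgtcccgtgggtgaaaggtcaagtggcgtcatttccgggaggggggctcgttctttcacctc
Hsph1, chr5:149636337-149636456, minus strand: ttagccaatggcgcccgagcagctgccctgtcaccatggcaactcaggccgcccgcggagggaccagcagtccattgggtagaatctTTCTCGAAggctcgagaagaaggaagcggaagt
Hspa1a, chr17:34972157-34972276, minus strand: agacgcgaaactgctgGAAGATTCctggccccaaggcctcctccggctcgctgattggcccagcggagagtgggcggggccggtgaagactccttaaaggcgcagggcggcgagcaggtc
Hspb1, chr5:135887799-135887918, plus strand: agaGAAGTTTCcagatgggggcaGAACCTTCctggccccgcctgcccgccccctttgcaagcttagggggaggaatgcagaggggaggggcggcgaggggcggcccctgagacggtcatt
The match begins 89 bases before the start of Hspe1 and 104 bases before that of Hspa1a, and Hspb1 has 2 matches. The longer run named above for Hsph1 begins 36 bases after the start of the transcript in this window, outside the stretch shown. Hspd1 lies on the opposite strand from Hspe1, and 1 of its windows overlaps that of Hspe1 and holds the same run. The window of Dnaja2 holds neither motif, which says only that these letters are not in this window. Matches are letters in a sequence and not measured sites.

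Of the 58 genes, 1 passed an FDR of 10% between the strains, Dnaja2, where 10 of 7697 features (0.13%) passed. At an unadjusted p under 0.05, limma called 7 members (12.1%) against 14% of all features, so the share of called members was near the background. The 7 genes were Dnaja2, Dnajc2, Hspa9, Hspa8, Hspb1, Cct8 and Hspd1. The difference between the highest and the lowest strain had a median of 0.46 on the log2 scale over the members and of 0.45 over all features. A range above 1 on the log2 scale was reached by 8 members (13.8%) and by 5.7% of all features. The ranges of the classes differed, as the plot of ranges by class shows. The Hsp70 and Hsp110 family had a median range of 1.04, the small heat shock proteins of 0.60, the J-proteins of 0.46, the cytosolic chaperonin of 0.39 and the cyclophilins of 0.39. CBA was the strain farthest from the mean for 33 of the 58 members and for 44.1% of all features. Its differences rest on the dye term, and so do ranges that CBA sets. The narrowest ranges were those of Cct5 with 0.10, Dnaja4 with 0.11, Pdia4 with 0.13 and Cct6a with 0.14.

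**Figure D1:**
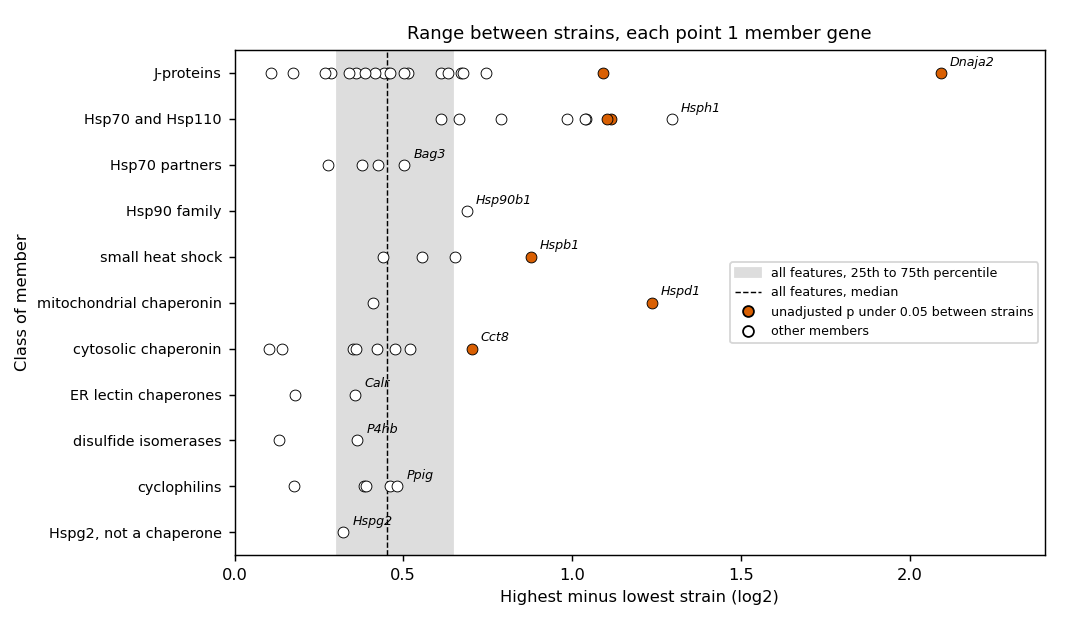
Each point is 1 member gene, placed by its class and by the difference between its highest and its lowest strain on the log2 scale. The grey band is the 25th to 75th percentile and the dashed line the median over all 7697 features, and filled points have an unadjusted p under 0.05 between strains. The 9 genes of the Hsp70 and Hsp110 family begin at 0.61, above the median of all features, while Dnaja2 stands apart from the other J-proteins at 2.09. Ranges set by CBA rest on the dye term.

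**Figure D2:**
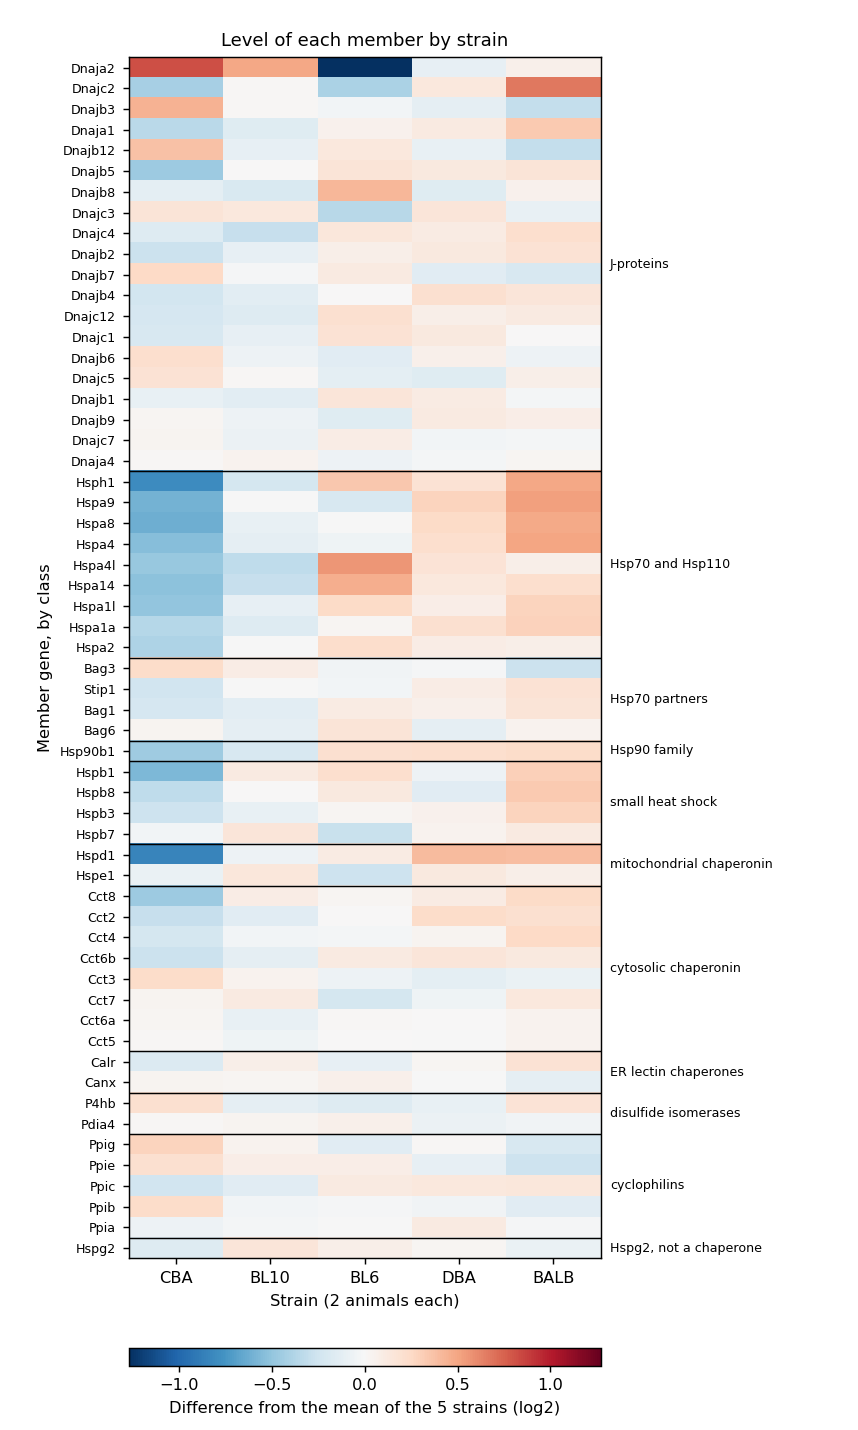
Rows are the 58 members by class and columns the 5 strains, and the colour is the difference of the strain from the mean of the 5 strains on the log2 scale. Dnaja2 is lowest in BL6 at −1.27, and the rows of the Hsp70 and Hsp110 family are blue in CBA and red in BALB.

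Dnaja2 (NM_019794), a J-protein that delivers unfolded proteins to Hsp70 in the cytosol, was lowest in BL6. On the arrays that hold BL6, the log2 ratio of Cy5 over Cy3 was 0.60 for DBA 1 against BL6 1, −1.89 for BL6 1 against DBA 2 and 0.47 for BALB 2 against BL6 2. On the arrays without BL6 it was −0.97 for DBA 2 against BALB 1, −0.61 for CBA 1 against BL10 1, −0.31 for BL10 1 against BALB 2, −0.19 for CBA 2 against BL10 2 and −0.13 for BL10 2 against DBA 1. All ratios of the latter 5 arrays were below 0, and the dye term of the gene was −0.73. BL6 was the lower side on each of the 3 BL6 arrays as measured. It remained so with the dye term removed, at ratios of 1.33, −1.16 and 1.20. Single animals can be placed relative to the mean of their loop by adding up these ratios. Since the loops share no animal and have no common zero, animals were compared only within a loop. The dye term removed is 1 estimate per gene from the fit of the strains, and both loops share it. The 2 animals of a strain are therefore not independent checks of each other, and an error in the term adds up along a loop. The 2 BL6 animals stood at −1.38 and −1.14, the DBA animals at −0.05 and −0.22, the BALB animals at 0.03 and 0.06, the BL10 animals at 0.48 and 0.54, and the CBA animals at 0.60 and 1.08. In each loop the BL6 animal was the lowest, and the next was BALB 2 in the smaller and DBA 2 in the larger.

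**Figure D3:**
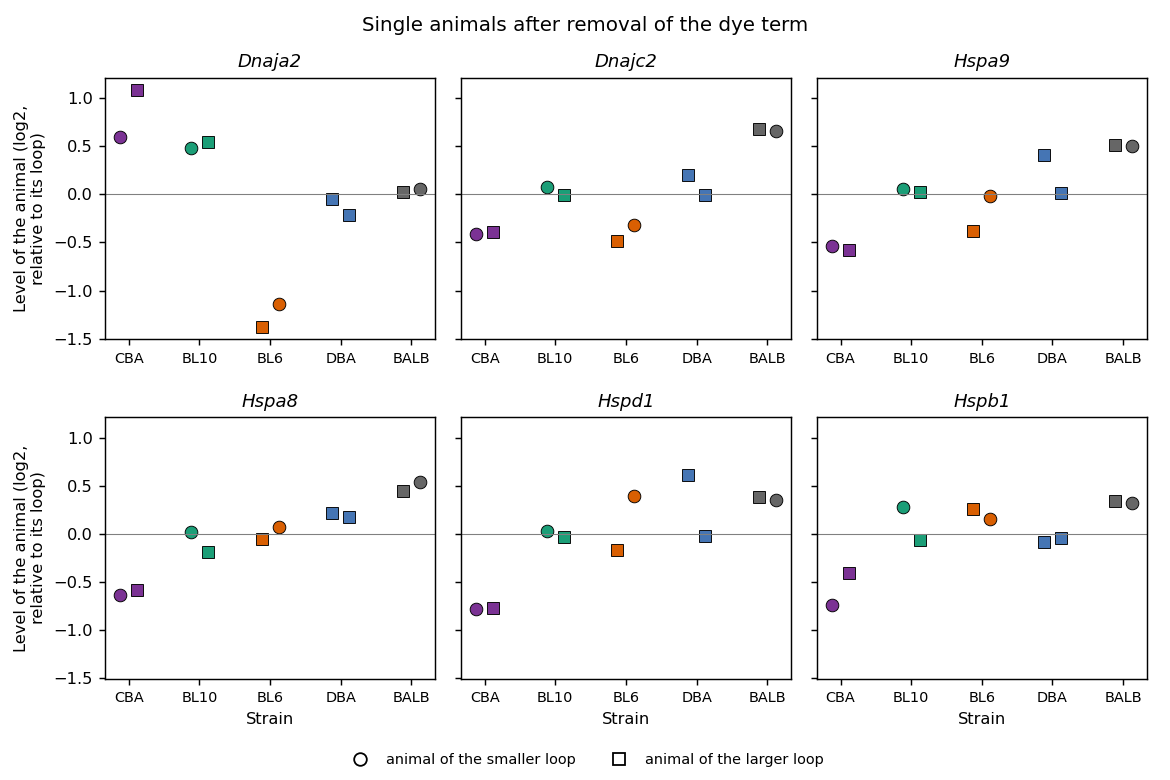
Level of each animal relative to the mean of its loop (log2, after removal of the dye term) for 6 members, with circles for the smaller loop and squares for the larger. For Dnaja2 the BL6 animals lie at −1.38 and −1.14, each the lowest of its loop, while for Hspa8 and Hspd1 the CBA animal of each loop lies lowest and for Dnajc2 and Hspa9 the BALB animal lies highest.

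The strains differed for Dnaja2 with an adjusted p of 0.0622 from limma's moderated F and a range of 4.27-fold. Against the mean of the other 4 strains, BL6 was 3.01-fold lower (SE 0.17 on the log2 scale, adjusted p = 0.0273 from limma), in a comparison in which 5 features (0.065%) were called lower. BL10 exceeded BL6 by a log2 difference of 1.76 (SE 0.23, adjusted p = 0.0416 from limma), where 0.065% of features passed in that direction. BL6 differed from BALB by −1.34 (SE 0.16, adjusted p = 0.0293), where 3.75% of features passed in that direction. The differences of BL6 from CBA and DBA did not pass (adjusted p = 0.181 and 0.113). The duplicate spots of the gene differed in size: BL6 stood at −2.31 against the other strains from the first spot (adjusted p = 0.0409) and at −0.89 from the second (adjusted p = 0.228). The call of BL6 against the other strains was lost in 7 of 22 alternative settings. The difference was −0.72 both with all 10 arrays as labelled (adjusted p = 0.245) and with the shared values entered once under the label of BL6 2 and CBA 1 (adjusted p = 0.232), −0.82 without a dye term (adjusted p = 0.371) and −1.43 without BL6 1 (adjusted p = 0.218). It was also lost from the second spot, with the replicate block and without a spread shared across features. The call of BL10 over BL6 was lost in the same 7 settings, with differences of 0.70 to 1.80 and adjusted p from 0.133 to 0.481, and that of BL6 against BALB in 4, with all 10 arrays, with the shared values under the label of BL6 2 and CBA 1, without a dye term and without a shared spread (−1.34 to −0.94, adjusted p from 0.101 to 0.728).

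Dnajc2 (NM_009584), a J-protein that acts at the ribosome, was highest in BALB. Its log2 ratio was 1.43 for BALB 2 against BL6 2, 1.14 for DBA 1 against BL6 1, 0.25 for BL10 2 against DBA 1 and 0.07 for CBA 2 against BL10 2. The other 4 ratios lay between −0.02 and −0.22. After removal of the dye term of 0.46, the BALB animals stood at 0.67 and 0.66, the BL6 animals at −0.48 and −0.31 and the CBA animals at −0.42 and −0.39. BALB was the highest in each loop, and the lowest was CBA 1 in the smaller and BL6 1 in the larger. The difference of BL6 from BALB was −1.07 (SE 0.14, adjusted p = 0.0293 from limma). This call was lost in 4 of 22 alternative settings, with all 10 arrays (−0.89, adjusted p = 0.273), from the second spot (−0.87, adjusted p = 0.109), without a dye term (adjusted p = 0.672) and without a shared spread (adjusted p = 0.318). Over all strains Dnajc2 did not pass (adjusted p = 0.139).

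The other 18 J-proteins had ranges of 0.11 to 0.75 and none passed an unadjusted p of 0.05 between the strains. Dnajb3 had the widest of these ranges, with 0.44 in CBA and −0.31 in BALB relative to the mean of the 5 strains, and the dye term of this gene was −1.14. Dnaja1, which like Dnaja2 serves Hsp70 in the cytosol, stood at −0.35 in CBA and 0.33 in BALB, and at 0.06 in BL6, where Dnaja2 was at −1.27. Dnajb1, the J-protein best known from the heat shock response, had a range of 0.29. Dnajb6, which keeps proteins from aggregating in muscle, had a range of 0.36 with the CBA animals at 0.23 and 0.24. Dnajc3 of the endoplasmic reticulum was lowest in BL6 at −0.35, but the first spot gave −1.12 and the second 0.18 for BL6 against the other strains. Dnaja4 had the narrowest range among the J-proteins.

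The 9 features of the Hsp70 and Hsp110 family were all lower in CBA and all higher in BALB than the mean of the other 4 strains. The median difference was −0.65 in CBA and 0.37 in BALB, against −0.05 and 0.0013 over all features. For 8 of the 9, all but Hspa4, both CBA animals were the lowest of their loop, which held for 22 of the 58 members (37.9%) and for 22.1% of all features. For 5 of the 9, both BALB animals were the highest, as for 14 members (24.1%) and for 10.1% of all features. By median over the 9 genes the CBA animals stood at −0.54 and −0.50, the BL10 animals at −0.10 and −0.15, the BL6 animals at 0.14 and 0.27, the DBA animals at 0.14 and 0.10, and the BALB animals at 0.25 and 0.38. The 9 genes are not independent of one another and were measured in the same animals.

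The places of CBA and BALB in this family changed when the dye term was left out. In each loop the arrays used begin with CBA in Cy5. Each animal in between is in Cy3 on 1 array and in Cy5 on the next. Removing a dye term above 0 therefore lowers CBA the most against the animals furthest along. BALB 1 is the last animal of the larger loop, and BALB 2 comes just before BL6 2, the last of the smaller. The term was above 0 for all 9 genes, with a median of 0.39, and for 53.4% of all features, with a median of 0.04. As measured, the ratio of CBA over BL10 had a median over the 9 genes of −0.08 for animals 1 and 0.10 for animals 2, and after removal of the dye term both ratios were below 0 for each of the 9 genes. Without a dye term 3 of the 9 genes were lower in CBA and 6 were higher in BALB, and with all 10 arrays as labelled these counts were 6 and 6. Without BL6 1, CBA was lower for 6 of the 9 genes. The counts thus moved with the dye term, and how far that term holds the label and not the strain was not tested.

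**Figure D4:**
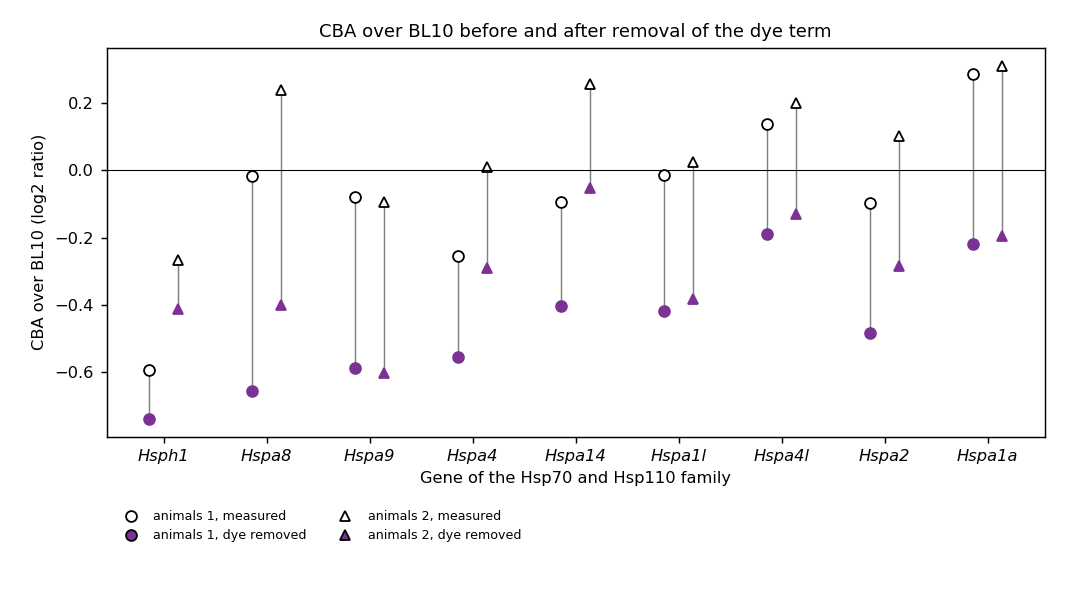
For each gene of the Hsp70 and Hsp110 family, the log2 ratio of CBA over BL10 is drawn as measured (open) and after removal of the dye term of the gene (filled), with circles for animals 1 and triangles for animals 2. Measured ratios lie on both sides of 0, at medians of −0.08 and 0.10, and the filled points all lie below 0.

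Hspa8 (M19141), the constitutive Hsp70 of the cytosol, was lowest in CBA and highest in BALB. Its log2 ratios were −0.02 for CBA 1 against BL10 1, 0.24 for CBA 2 against BL10 2, 0.12 for BL10 1 against BALB 2, 0.24 for BL10 2 against DBA 1, 0.91 for DBA 1 against BL6 1, 0.41 for BL6 1 against DBA 2, 1.12 for BALB 2 against BL6 2 and 0.37 for DBA 2 against BALB 1. Of these, 7 were above 0, and the dye term was 0.64. The CBA animals stood at −0.63 and −0.59, the BL10 animals at 0.02 and −0.19, the BL6 animals at −0.06 and 0.07, the DBA animals at 0.21 and 0.17 and the BALB animals at 0.44 and 0.54. In each loop the CBA animal was the lowest and the BALB animal the highest, with the BL6 animal above the BL10 animal. CBA was 1.72-fold lower than the mean of the other strains (SE 0.21 on the log2 scale, adjusted p = 0.383) and BALB 1.52-fold higher (SE 0.14, adjusted p = 0.354), and the difference between BL6 and BALB was −0.48 (adjusted p = 0.101). None passed an FDR of 10%.

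Hspa9 (NM_010481), the Hsp70 of mitochondria that pulls imported proteins through the inner membrane, stood at −0.60 in CBA and 0.52 in BALB relative to the mean of the 5 strains. Its log2 ratios were 1.30 for DBA 1 against BL6 1 and 1.02 for BALB 2 against BL6 2, and lay between −0.09 and 0.12 on the other 6 arrays. The BALB animals stood at 0.51 and 0.50 and the CBA animals at −0.54 and −0.58. In each loop CBA was the lowest and BALB the highest. The BL6 animals stood at −0.38 and −0.02, and the DBA animals, which are in 1 loop, were apart at 0.41 and 0.02. The difference of BL6 from BALB was −0.73 (SE 0.17, adjusted p = 0.0752 from limma), a call that was lost in 13 of the 22 alternative settings, with adjusted p from 0.102 to 0.747. These were leaving out BALB 1, either CBA animal or either BL10 animal, all 10 arrays, the shared values under the label of BALB 1 and CBA 2, either spot alone, no dye term, equal array spreads, no spread shared across features and quantile normalization. Without BALB 1 the difference was −0.45.

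Hsph1 (NM_013559), an Hsp110 that exchanges the nucleotide of Hsp70, had the widest range in the family with 2.46-fold. CBA stood at −0.80 and BALB at 0.50, with the CBA animals at −0.86 and −0.65, but the BL6 animals lay at 0.14 and 0.55 and the DBA animals at 0.39 and −0.17. Its relatives Hspa4 and Hspa4l were split between strains: Hspa4 was highest in BALB at 0.50 and Hspa4l in BL6 at 0.56. Hspa14, a ribosome-bound Hsp70 relative, was also highest in BL6 at 0.47, with the BL6 animals at 0.41 and 0.56 and the CBA animals at −0.64 and −0.38. BL6 exceeded the mean of the other strains by 0.58 for Hspa14 (adjusted p = 0.23) and by 0.70 for Hspa4l (adjusted p = 0.243), and both had an unadjusted p under 0.05. Hspa1a, the Hsp70 that heat induces most, had a range of 0.66 with CBA at −0.37 and BALB at 0.30. Its oligonucleotide may also bind Hspa1b, a near-identical neighbour, so this value is not certain to belong to 1 gene. Hspa1l, which neighbours it, stood at −0.51 in CBA, yet the first spot gave −0.11 and the second −1.13 against the other strains. Hspa2 had the narrowest range of the family.

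The subunits of the mitochondrial chaperonin had different orders of strains. Hspd1 (X53584), the subunit of the chamber known as Hsp60, had log2 ratios of −0.49 for CBA 1 against BL10 1, −0.41 for CBA 2 against BL10 2, −0.32 for BL10 2 against DBA 1, 0.01 for BL10 1 against BALB 2, 1.10 for DBA 1 against BL6 1, 0.28 for BALB 2 against BL6 2, 0.18 for BL6 1 against DBA 2 and −0.09 for DBA 2 against BALB 1. The CBA animals stood at −0.78 and −0.77, each the lowest of its loop. In the larger loop BL6 1 at −0.17 was below BL10 2 at −0.04 and DBA 1 at 0.61 above BALB 1 at 0.39, while in the smaller loop BL6 2 at 0.40 was above BL10 1 at 0.03 and BALB 2 at 0.35. CBA was 2.06-fold lower than the mean of the other strains (SE 0.35 on the log2 scale, adjusted p = 0.401), and without BL6 1 the difference was 0.35 in the other direction. Hspe1 (NM_008303), the lid of the chamber known as Hsp10 and transcribed from the opposite strand of the shared promoter shown above, had a range of 0.41 with BL6 lowest at −0.26 and CBA at −0.08. Its 2 spots gave −0.43 and 0.24 for CBA against the other strains.

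Among the small heat shock proteins, Hspb1 (NM_013560), which binds actin and desmin filaments, had a range of 1.84-fold. Its log2 ratio was −0.73 for CBA 1 against BL10 1 and −0.06 for CBA 2 against BL10 2, and the other 6 lay between −0.09 and 0.59. The CBA animals stood at −0.74 and −0.41, each the lowest of its loop, and the BALB animals at 0.34 and 0.32 were the highest of their loops. CBA was 1.64-fold lower than the mean of the other strains (SE 0.28 on the log2 scale, adjusted p = 0.417). Hspb8, which works with Bag3 in the turnover of muscle proteins, and Hspb3 stood at −0.32 and −0.27 in CBA and at 0.33 and 0.29 in BALB. Hspb7, found in heart and skeletal muscle, was lowest in BL6 at −0.28 with a range of 0.44. All 4 were below 0 in CBA and above 0 in BALB, but for Hspb7 the sign in CBA was not settled. Its 2 spots gave −0.09 and 0.06 for CBA against the other strains, and the CBA animals stood at 0.04 and −0.02.

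The cytosolic chaperonin was represented by 8 features, with ranges of 0.10 to 0.70. Cct8 (NM_009840) stood at −0.46 in CBA, with the CBA animals at −0.39 and −0.52, each the lowest of its loop. Without BL6 1 the CBA difference of Cct8 from the other strains was 0.29. Cct2, Cct4 and Cct6b also had CBA as the lowest strain, at −0.29, −0.22 and −0.27, while Cct3 stood at 0.24 in CBA. For Cct4 the first spot gave 0.05 and the second −0.60 for CBA against the other strains. Cct7 was lowest in BL6 at −0.22, and Cct5 and Cct6a had ranges of 0.10 and 0.14. The subunits had no common order of strains.

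Among the lectin chaperones and disulfide isomerases of the endoplasmic reticulum the ranges were 0.36 or less. Canx had a range of 0.18 and Calr of 0.36, with Calr at 0.18 in BALB. Pdia4 had a range of 0.13, and P4hb, the disulfide isomerase that is also a subunit of the enzyme that modifies collagen, of 0.36, with the CBA animals at 0.13 and 0.30 and the BL6 animals at −0.08 and −0.23. Hsp90b1, the Hsp90 of this compartment, had a wider range of 0.69 and stood at −0.45 in CBA, −0.20 in BL10 and between 0.20 and 0.24 in the other strains, but with all 10 arrays the CBA difference from the other strains was 0.03.

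The 5 cyclophilins had ranges of 0.18 to 0.48 and none had an unadjusted p under 0.05. Ppig, Ppie and Ppib were highest in CBA, at 0.28, 0.20 and 0.24, and lowest in BALB, at −0.20, −0.26 and −0.14, but the 2 spots of Ppig gave −0.37 and 1.13 for CBA against the other strains and 0.15 and −0.67 for BALB, and those of Ppib gave −0.01 and 0.62 for CBA. The 2 spots placed CBA on opposite sides of the other strains for 15 of the 58 members, and the share over all features was not counted. Both spots lie on the same arrays with the same labels, so they do not check the dye term. Ppia, the cytosolic cyclophilin often used as a reference gene, had a range of 0.18 with DBA highest at 0.12. Among the partners of Hsp70, Bag3 stood at 0.24 in CBA and −0.27 in BALB, but the CBA animals lay apart at −0.03 and 0.52. Without BL6 1 the difference of Bag3 in BALB from the other strains was 0.20. Stip1, which joins Hsp70 to Hsp90, stood at −0.24 and 0.19. Bag6 had the narrowest range of the 4 partners with 0.28. Hspg2, the proteoglycan, had a range of 0.32 with BL10 highest at 0.16.

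At an unadjusted p under 0.05 in CBA, 13 members (22.4%) were lower than the mean of the other strains where 6.42% of all features were, and 2 were higher where 5.08% were. In BALB, 9 members (15.5%) were higher where 7.15% of all features were, and 1 was lower where 4.16% were. In DBA, 5 members were higher (Hspa8, Hspd1, Hspa9, Cct2 and Hspa1a) where 3.52% of all features were, and 0 were lower where 2.12% were, and none of the 58 passed an FDR of 10% there. In BL6, 2 members were lower (Dnaja2 and Dnajc2) where 6.64% of all features were and 2 were higher (Hspa14 and Hspa4l) where 8.38% were. In BL10, Hspa14 was lower where 3.52% of all features were and Dnaja2 was higher where 4.11% were. The comparisons share the animals of all strains. The median over the 58 members was −0.21 in CBA, −0.07 in BL10, 0.03 in BL6, 0.09 in DBA and 0.14 in BALB, against −0.05, −0.04, 0.04, 0.03 and 0.0013 over all features. CBA was the lowest strain for 31 of 58 members and for 37.7% of all features.

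The count of members lower in CBA depended on the arrays and on the dye term. It was 6 (10.3%) with all 10 arrays where 2.61% of all features were lower, and 2 (3.45%) with the shared values entered once under the label of BALB 1 and CBA 2 where 0.65% were. Without a dye term it was 3 (5.17%) against 10.7% of all features, and without BL6 1 it was 6 (10.3%) against 9.78%, so the share of members was below or near the background in these. It was 1 and 2 without BL10 1 and BL10 2 against 0.494% and 0.715%, and 5 without CBA 1 against 2.33%. With the 2 identical arrays left out, the SE of a CBA difference had a median of 0.23 over all features, against 0.13 to 0.16 in the other strains. The sign of the difference between CBA and BL10 was the same in both loops for 48 of 58 members (82.8%) and for 76% of all features, with 1 dye term for both loops. For BL6 against BALB it was the same for 41 members (70.7%) and 74.5% of all features.

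Markers of fast muscle fibres stood on the same side as the Hsp70 family. Of 10 genes listed, 7 were on the array, and their median difference was −0.50 in CBA and 0.50 in BALB, with the CBA animals at −0.30 and −0.22 and the BALB animals at 0.34 and 0.43. All 7 also had a dye term above 0. Pvalb, a calcium-binding protein of fast fibres, stood at −1.33 in CBA against the other strains, which did not pass an FDR of 10% (adjusted p = 0.264 from limma). In DBA it stood at 1.04 against the other strains, which did pass (adjusted p = 0.076 from limma). Its F between strains passed as well (adjusted p = 0.0624 from limma). Of 8 slow-fibre genes listed, 5 were on the array, with medians of −0.42 in CBA and 0.11 in BALB. The 3 features of fibroblast markers had medians of −0.81 in BL6, 0.68 in CBA and 0.63 in BL10, on the same side as Dnaja2 in each of these strains. The 7 leukocyte features had medians of 0.12 in CBA and −0.21 in BALB. The highest in CBA were C1qa at 1.54 and Cd68 at 1.31 (adjusted p = 0.264 for both, from limma). The other leukocyte features lay between −0.09 for C1qb and 0.42 for Cd14 in CBA, with Ptprc at 0.07. The fat cell, blood, endothelium and Schwann cell lists had medians between −0.18 and 0.24 in CBA. The fat cell features were uneven, with Fasn at 2.58 and Scd1 at 2.22 in CBA but Adipoq at −0.05 and Lpl at −0.22. The median of the fat cell list was 0.95 in BL10, −0.65 in BL6 and −0.64 in DBA. Animals of a strain lay apart there, at −0.17 and 1.49 in BL10 and at 0.22 and −1.45 in DBA. The dye term was also above 0 for all 5 slow-fibre and all 4 endothelium features, lists with a CBA median below 0. It was above 0 for 0 of 7 leukocyte and 0 of 3 blood features, lists with a CBA median above 0. For the fat cell, fibroblast and Schwann cell lists it was above 0 for 2 of 5, 2 of 3 and 2 of 3 features. The CBA medians of these lists were 0.24, 0.68 and 0.18. Since CBA was only in Cy5, its difference is a ratio with the dye term taken off, and opposite signs are partly built in. What part fibre type, other cells or the dye term had in the results was not tested.

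Of 73 other genes of protein folding, 38 were on the array in 39 features. Between the strains 9 features had an unadjusted p under 0.05, where 14% of all features did, and by limma 0 passed an FDR of 10%. The medians of the list lay between −0.05 and 0.0031 in all 5 strains, and at an unadjusted p under 0.05 in CBA 1 feature was lower and 5 were higher, against 6.42% and 5.08% of all features. In BL6, 5 were lower and 4 higher, against 6.64% and 8.38%. Cryab, a small heat shock protein of muscle that chaperones desmin, had the widest range with 1.53, at −0.98 in CBA and 0.54 in BALB, on the same side as Hspb1 and Hspb8. Tcp1, the subunit of the cytosolic chaperonin that the symbol rule does not take, stood at −0.77 in BL6 and 0.61 in CBA (adjusted p = 0.154 from limma's F), in the order of Dnaja2 and not of Cct8. Clpb, a protein disaggregase of mitochondria, and Fkbp1a, a prolyl isomerase that binds the calcium release channel of muscle, were likewise highest in CBA, at 0.91 and 0.71, and lowest in BL6, at −0.55 and −0.62. Ptges3, a co-chaperone of Hsp90, stood at −0.46 in CBA and 0.49 in BALB. Xbp1 and Atf4, transcription factors of the stress response of the endoplasmic reticulum, were highest in CBA at 0.74 and in BALB at 0.47.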

How the data were processed

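Quadriceps RNA of 10 male mice was compared on 10 arrays of oligonucleotides spotted in duplicate. The authors extracted spots with GenePix Pro 3.0, subtracted local background and normalized by VSN in R, and deposited ratios of Cy5 to Cy3 on a natural log scale, a base taken here from the VSN method. Of these, 8 arrays were used, without the 2 identical ones. Duplicate spots were averaged, 80 control features were joined to 1, and ratios were converted to log2 and centred on the median of each array. limma 3.58.1 in R 4.3.3 fitted strain and, gene by gene, dye, with animals as replicates (variance ratio of animals to arrays 0.446) and 3 residual degrees of freedom. P-values were adjusted over 7697 features by the procedure of Benjamini and Hochberg at an FDR of 10%. Whether animals shared a cage or litter is not given. The p-values rest on the spread of arrays and animals together, at 1 variance ratio for all features and partly shared across features. They reach no further than these animals. Named genes are those past an FDR of 10%, the 12 smallest p, the widest and narrowest of each class, 3 listed by the study, and Hspg2, with others named for their role or count after their values were seen. The members, lists and tests were chosen with earlier results of these data known. The steps were tested on simulated data. Figures used matplotlib 3.10.9 (Python 3.11.15). The alternatives were the arrays used, centring, spread, quantile normalization, single spots, the dye term, the variance model, an FDR of 5%, the replicate block and leaving out each animal.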

Additional observations from a re-analysis of the deposited data

How the results depend on the processing

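The values were recomputed under 22 alternative settings and, for the counts at an FDR of 10%, at an FDR of 5%. The count of members past an FDR of 10% between strains, 1 as reported, was 0 with all 10 arrays, with the shared values under the label of BALB 1 and CBA 2, from the first or the second spot alone, without a dye term, without a spread shared across features and at an FDR of 5%. It was 2 with equal array spreads, with quantile normalization and with the replicate block. In BL6 against the other strains it was 1 as reported, 0 with all 10 arrays, from the second spot, without a dye term, without a shared spread and with the replicate block, and 2 with the shared values under the label of BALB 1 and CBA 2. At an unadjusted p under 0.05 between strains the count of 7 became 13 with equal array spreads and 1 without a dye term, and the count of 4 in BL6 became 7 with equal array spreads or quantile normalization and 8 from the second spot. The shares over all features are not set beside these counts, so no excess or lack of members can be read from them.

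The count of 13 members lower in CBA became 6 with all 10 arrays or with the shared values under the label of BL6 2 and CBA 1, 2 with those under the label of BALB 1 and CBA 2, 5 and 6 from the single spots, 3 without a dye term, and 8 without a shared spread or with the replicate block. The count of 9 higher in BALB became 5 with all 10 arrays, 2 without a dye term and 5 without a shared spread. Shares over all features are not given for these BALB counts, so whether an excess of members remained cannot be read from them. The counts of the Hsp70 and Hsp110 family, 9 of 9 in CBA and in BALB, became 3 in CBA without a dye term. The CBA and BALB counts and the Hsp70 counts were chosen after the values were seen. The replicate block is a term for the number of the animal, which the labels do not tie to a shared day or litter, and under it Dnaja2 stood at −1.62 in BL6 (adjusted p = 0.174 from limma).

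The median over members in CBA was −0.023 with all 10 arrays, −0.059 and −0.027 with the shared values under either label, −0.14 with quantile normalization, −0.13 and −0.27 from the single spots and −0.050 without a dye term. In BL10 it was −0.011, −0.015 and −0.029 with the shared arrays in these 3 ways and 0.022 without a dye term, and in DBA 0.025 under the label of BALB 1 and CBA 2. In BALB it was 0.059, 0.088 and 0.052 in these 3 ways, 0.13 without centring, 0.15 from the first spot and 0.095 without a dye term. The other medians moved by less than the spread between the animals.

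Leaving out 1 animal at a time gave 3 to 31 members at an unadjusted p under 0.05 between strains, 0 to 31 past an FDR of 10%, 3 to 19 and 1 to 17 in BL6, 1 to 19 lower in CBA and 3 to 18 higher in BALB. The medians ranged from −0.30 to −0.061 in CBA, −0.12 to −0.037 in BL10, 0.0066 to 0.066 in BL6, 0.033 to 0.13 in DBA and 0.11 to 0.24 in BALB. These fits keep 1 or 2 residual degrees of freedom, and in those with the highest counts the calls rose over all features too. Past an FDR of 10% between strains there were 31 members and 3840 of all features without DBA 1, 25 and 3772 without BALB 2, 17 and 2446 without BL6 1, 9 and 1402 without BALB 1, 2 members without either BL10 animal and 0 without BL6 2. No fit was made without DBA 2, since the dye term can then not be estimated.

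Of 594 values of 27 named members, 532 kept their direction and their side of an FDR of 10%, 7 lost the call, all for Dnaja2, 29 gained one and 26 in 16 genes reversed. Without BL6 1 the sign turned for 9 members, and leaving out 1 animal at a time gave −0.91 to 0.29 for Cct8, −1.88 to 0.35 for Hspd1 and −1.78 to 0.39 for Hsph1 in CBA, −0.24 to 0.90 for Calr, −0.77 to 0.20 for Bag3 and −0.47 to 0.35 for Canx in BALB, −0.10 to 0.014 for Dnaja4 in BL6, and −0.19 to 0.061 for Cct5 in BL10. For Bag6 in BL6 it gave −0.37 to 0.29. The same gave −0.044 to 0.28 for Ppia, with the lowest value without DBA 1, and −0.45 to 0.29 for Pdia4, above 0 without BALB 1 (0.29) and BALB 2 (0.043), both in DBA. Without a dye term the values became 0.50 for Dnajb3, −0.019 for Hspa1a and 0.018 for Ppig in BALB, 0.48 for Hsp90b1 and 0.22 for Hspa2 in CBA, 0.045 for Pdia4 in DBA and −0.020 for Bag6 in BL6. From the first spot they became 0.15 for Ppig in BALB, 0.012 for Dnaja4 in BL6 and 0.00073 for Cct5 in BL10, and from the second 0.027 for Pdia4 in DBA and 0.010 for Canx in BALB. With all 10 arrays Hsp90b1 became 0.030 in CBA, and with equal array spreads Pdia4 became 0.0048 in DBA. None of these 26 values passed an FDR of 10%. The cause was not tested. The deposited ratios carry no intensities, and what dim spots limit was not examined.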
